A study of Mus musculus with 10 samples.

Results

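The paired inclusion junction probes are the oligonucleotides that cross the splice junctions on either side of an alternative exon. They were chosen by their probe suffix alone. For every one of 3126 alternative splicing events the table holds a C1:A probe, which joins the flanking exon C1 to the alternative exon A, and an A:C2 probe, which joins A to the flanking exon C2. That gives 6252 of the 21882 probes. The other probes of an event lie in the bodies of C1, A and C2, across the skipping junction C1:C2, or carry the suffix INT, whose target no label used here states. The samples were pooled total RNA of CD1 mice, an outbred strain, from testis, brain, kidney, spleen, heart, liver, muscle, lung, intestine and salivary, the last as the label gives it. Each tissue was 1 array, with no replicate, and no label used here states age, sex or how many animals were pooled.

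When an alternative exon is spliced in, the spliceosome joins it to its neighbours on both sides, so an ordinary included exon makes both inclusion junctions. A transcript that starts or ends inside the alternative exon, or that uses another splice site on one side, makes a single one of them. A junction probe spans the join and so holds sequence of both exons. C1:A and C1:C2 therefore share the C1 side, and A:C2 and C1:C2 share the C2 side. Probe sequences and gene names were not used here, so events are named by their number in the table and the tissue labels were not checked against marker genes. Some events may lie in the same transcript.

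The lowest value was 0 and the highest 8.66, on a scale that looks logarithmic but has no stated base, and all differences are in units of that scale. A value of 0 is the lowest the table holds, and the share of probes listed at 0 ran from 0.640% in muscle to 3.52% in salivary for C1:A and from 0.832% in kidney to 4.22% in salivary for A:C2. Salivary had the most such probes of both kinds. The number of arrays limits the precision, and no p-value was computed for any single exon. Where a difference could be expressed as 1 number per array, an exact sign-flip permutation test over the 10 arrays was used (two-sided, smallest possible p 0.00195), with Benjamini-Hochberg adjustment over 10 such tests. The arrays carry the same probes, so these tests speak of these probes and not of junctions in general.

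The first question was whether both junctions of an exon report the same thing. Their typical brightness was alike: array medians ran from 1.996 to 2.16 for C1:A and from 1.91 to 2.16 for A:C2. The median difference within exons, C1:A minus A:C2, lay between -0.0473 in kidney and 0.0700 in muscle, with a mean of 0.0106 ± 0.0363 (SD, n = 10 arrays). It was above 0 in 6 arrays and below 0 in 4 (exact sign-flip permutation p = 0.367, adjusted 0.408). Single exons were far less balanced. The asymmetry of an exon, its C1:A value minus its A:C2 value, had a median over tissues from -4.82 to 5.997, and the middle 50% of exons lay between -0.508 and 0.557. C1:A was the brighter junction in every tissue for 702 exons, A:C2 for 676, and the order changed between tissues for 1727. Of the variance of the asymmetry, 76.3% lay between exons, 0.144% between arrays and 23.5% in the rest. A constant difference between probes of unlike sequence does not measure use of the junctions, so the comparisons between tissues below set each exon against its own values elsewhere.

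Within a tissue, the pair moved together. Each value, after centring the arrays on their medians, was set against the median of the other 9 tissues, and the deviations of C1:A and A:C2 correlated across exons at r = 0.79 in liver, 0.76 in testis and 0.72 in intestine. The values were 0.68 in lung, 0.67 in brain, 0.66 in kidney, 0.58 in salivary and 0.57 in heart. Muscle and spleen were lowest, both at 0.51. Exons are not independent replicates, and both probes share the array and the comparator tissues. By rank, the correlations ran from 0.47 in heart to 0.67 in testis, and muscle and spleen, at 0.55 and 0.57, then stood above heart and salivary (0.53). As a background on the same arrays, the deviations of C1:A correlated with those of the INT probe of the event at 0.09 to 0.25 and those of A:C2 at 0.07 to 0.24.

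The flanking exon probes, the other pair on the array that lies on either side of the alternative exon, agreed better. The deviations of C1 and C2 correlated at a mean of 0.72 over arrays, against 0.65 for the junction pair. The junction pair was lower in 9 of 10 arrays, with a mean difference of -0.0765 ± 0.0731 (SD, exact sign-flip permutation p = 0.00391, adjusted 0.00651). The difference was -0.231 in spleen, the widest, and 0.00226 in intestine. As a scale of error, the robust SD of the asymmetry deviations was 0.404 units, against 0.532 for the deviations of C1:A and 0.561 for those of A:C2 taken alone.

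Over the 10 tissues of a single exon, the correlation of C1:A with A:C2 had a median of 0.72 over exons, with quartiles at 0.34 and 0.92. It was above 0.9 for 874 exons, 28.0% of all, and below 0 for 363, 11.6%. It was higher in exons that varied more. In the 626 exons whose mean junction value varied least (span over tissues up to 1.03 units) the median was 0.20 and 35.0% were negative. In the 625 that varied most (span from 2.64 units) it was 0.95 and 0.8% were negative. Junctions that move apart cancel in their mean, so this sorting itself places disagreeing pairs among the least variable exons. The values are a description only. By brightness, the median went from 0.57 in the 626 dimmest exons to 0.89 in the 625 brightest. The flank pair stood at 0.64 in the least variable exons and at 0.94 in the most variable, close to the junction pair there.

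Large changes were often seen by both junctions at once. A probe was called high in a tissue when it lay at least 2.11 units, 4 robust SDs of all probe deviations, above the median of the other tissues. By this rule 2.2% of all probe and tissue combinations were high, against 2.56% for C1:A (800 calls) and 2.64% for A:C2 (824 calls), so the pair was called little more often than probes at large. In 447 combinations both junctions of the exon were high, 55.9% of the C1:A calls and 54.2% of the A:C2 calls. Low calls were rarer, 42 for C1:A and 54 for A:C2, against 0.149% of all probe and tissue combinations, and both junctions were low together 16 times. In 7 of those 16, all 7 probes of the event, INT included, were listed at 0 on that array. In no combination was a junction high while its partner was low, but low calls are too rare for that count to measure agreement.

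The tissues differed in how many of these calls were shared. In testis, where 5.9% of all probes were high, 206 C1:A and 212 A:C2 probes were high and 138 exons had both. Liver, with 3.45% of all probes high, had 109 and 135, with 87 shared. Brain, with 2.94%, had 98 and 116, with 61 shared, and kidney, with 2.25%, had 69 and 91, with 46 shared. In these 4 tissues 62.2% to 79.8% of the C1:A calls were shared, and in intestine, with fewer calls, 63.8%.

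Shares were lower in muscle and spleen. Intestine (1.62% of all probes high) had 47 C1:A and 58 A:C2 calls with 30 shared, heart (1.46%) had 56 and 62 with 30 shared, lung (0.585%) had 19 and 18 with 11 shared, and salivary (0.836%) had 31 and 22 with 10 shared. Muscle (1.5% of all probes high) had 84 C1:A and 56 A:C2 calls, of which 18 were shared. Spleen (1.49%) had 81 and 54, of which 16 were shared. So 21.4% of the C1:A calls in muscle and 19.8% in spleen had a high partner, the lowest shares of the 10 tissues. Salivary was next, at 32.3%. Whether these shares differ between tissues was not tested. With quantile normalization the shared calls numbered 38 in liver and 85 in testis, while brain had 68 and muscle and spleen 24 each.

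The strongest joint rises were in liver. The event Ben4245 had the highest lesser deviation of its junctions. Its C1:A probe read 8.09 in liver, 5.70 in kidney and 3.33 in heart, and 1.35 to 1.87 in brain, intestine, lung, muscle, salivary, spleen and testis. Its A:C2 probe read 7.66 in liver, 5.50 in kidney and 2.95 in heart, and 0.329 to 1.07 in the same others. Both junctions thus gave the same order of liver, kidney, heart and the rest, and correlated at 0.99 over tissues. The A probe read 7.11 in liver, 3.54 in kidney and 3.22 in heart. Deviations in liver were 6.41 for C1:A, 6.95 for A:C2 and 5.80 for A.

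The junctions of Ben2069 also rose together in liver, but parted elsewhere. C1:A read 7.47 in liver and at most 1.44 in any other tissue, with brain, spleen and testis listed at 0. A:C2 read 7.72 in liver, but also 4.14 in muscle and 4.28 in spleen, where C1:A read 0.334 and 0. In the other tissues A:C2 read 1.59 or less. The skipping junction of Ben2069 followed A:C2 in those arrays, at 4.24 in muscle and 4.31 in spleen against 0.576 in lung and 0.393 in salivary. The A probe did not, at 0.200 in muscle and 0 in spleen.

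At the low end the junctions of Ben4077 were listed at 0 in kidney. Elsewhere C1:A read from 3.96 in liver to 5.27 in intestine and A:C2 from 3.99 to 5.32 in the same tissues. All 7 probes of Ben4077 were listed at 0 in kidney, the INT probe among them. Ben1694 showed the same in liver, where all 7 of its probes were listed at 0, against 2.39 to 5.94 for C1:A and 1.63 to 5.89 for A:C2 in the other tissues. Every probe was at 0 in 20 event and tissue combinations of the whole series, from 0 in intestine, lung and spleen to 6 in salivary. A low call that rests on such a set of zeros gives no size.

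The second question was in which tissues the junctions of an exon part. An exon was called asymmetric in a tissue when its asymmetry lay at least 1.62 units, again 4 robust SDs, from its median in the other tissues. Over all tissues there were 442 calls towards C1:A, 1.41% of combinations, and 408 towards A:C2, 1.31%. At the same threshold in units, the flank pair passed in 0.867% of combinations towards C1 and 1.34% towards C2. The junction calls fell on 591 exons, 327 of them towards C1:A and 313 towards A:C2, so 49 were called in both directions in different tissues. Outside muscle and spleen there were 278 calls towards C1:A and 299 towards A:C2. With both arrays left out, and the comparators and the threshold recomputed from the other 8, there were 277 and 239.

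Muscle and spleen had the most calls towards C1:A, 86 (2.75% of exons) and 78 (2.5%). Testis had 63 (2.02%), brain 45 (1.44%), heart 42 (1.34%), salivary 37 (1.18%), intestine 29 (0.928%), liver 25 (0.8%), kidney 24 (0.768%) and lung 13 (0.416%). Towards A:C2 testis had 75 (2.4%), spleen 55 (1.76%), muscle 54 (1.73%), brain 50 (1.6%), heart 47 (1.5%), kidney 44 (1.41%), liver 31 (0.992%), salivary 24 (0.768%), intestine 20 (0.64%) and lung 8 (0.256%). Lung had the fewest calls in both directions. Calls towards C1:A outnumbered those towards A:C2 in muscle, spleen, salivary, intestine and lung. They were fewer in kidney, testis, liver, brain and heart, with the widest gap of these in kidney. After quantile normalization muscle had 90 and spleen 86 calls towards C1:A, liver had the fewest, 18, and lung had 19, and towards A:C2 spleen (59), muscle (58) and testis (57) lay close together. Leaving out kidney raised the liver count towards A:C2 from 31 to 47, and leaving out muscle and spleen took the kidney count from 44 to 28. No exon was tested against replicates, so these counts describe the arrays.

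An asymmetric call was mostly a rise of 1 junction, not a fall of the other. Among the 442 calls towards C1:A the median deviation was 2.10 for C1:A and -0.23 for A:C2. C1:A itself passed the threshold for a high probe in 220, and A:C2 was called low in 16. Among the 408 calls towards A:C2 the medians were 1.95 for A:C2 and -0.24 for C1:A, with A:C2 high in 176 and C1:A low in 5. Values stop at 0, so a junction that is dim elsewhere can fall little, and the small falls do not show that the partner kept its level.

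The body of the alternative exon was, by the median, near its level elsewhere in calls towards C1:A and higher in calls towards A:C2. In the calls towards C1:A the median deviation of A was -0.03, and A lay nearer to A:C2 in 330 of 442. In the calls towards A:C2 the median of A was 0.39, and A lay nearer to C1:A in 229 and to A:C2 in 179. That tally rests on muscle and spleen: outside them A lay nearer to C1:A in 136 and to A:C2 in 163. In the 25 liver calls towards C1:A, A had a median of 0.99 and lay nearer to C1:A in 13. In calls towards A:C2, A was higher by a median of 1.05 in testis (75 calls), 0.93 in brain (50), 0.79 in liver (31), 0.60 in intestine (20), 0.53 in kidney (44), 0.25 in heart (47) and 0.16 in salivary (24). C2, the exon at the other end of that junction, was also higher there, by 1.13 in testis and 0.66 in brain. Lung, with 8 calls, had 1.46 for A and 1.59 for C2. In muscle and spleen A stayed near its level elsewhere in these calls, at -0.09 and 0.00, and so did C2, at -0.17 and -0.15. These differences between tissues were not tested.

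The skipping junction moved with different calls in muscle and spleen than in the pooled calls of the other tissues, a difference that was not tested. Outside these 2 tissues, calls towards C1:A came with a C1:C2 probe higher by a median of 0.83, high in 59 of 278 calls, whereas calls towards A:C2 came with a median of -0.05, high in 9 of 299. In muscle the order was the reverse. The 86 calls towards C1:A had a median C1:C2 deviation of 0.01, with 5 high, and the 54 towards A:C2 one of 1.79, with 19 high. In spleen the 78 calls towards C1:A had a median of -0.13, with 0 high, and the 55 towards A:C2 one of 1.60, with 19 high. Muscle and spleen share 8 of their 9 comparator tissues and are in each other's comparator. Against the other 8 tissues alone, the C1:C2 medians were 0.02 and 1.63 in muscle (92 and 56 calls) and -0.09 and 1.62 in spleen (88 and 55 calls).

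The same reversal appeared in the correlations across all exons, the called ones included, when the deviations were not ranked. The deviations of C1:A and C1:C2 correlated at 0.62 to 0.75 in brain, heart, intestine, kidney, liver, lung, salivary and testis, and those of A:C2 and C1:C2 at 0.50 to 0.64. In muscle the values were 0.44 for C1:A and 0.59 for A:C2, and in spleen 0.45 and 0.62. The difference favoured C1:A in 8 arrays and A:C2 in 2, with a mean of 0.0693 ± 0.125 (exact sign-flip permutation p = 0.109, adjusted 0.137). Without muscle it was 0.0966 and without spleen 0.0995. These 2 arrays were the only ones below 0, so leaving either out raises the mean by construction. By rank the mean was 0.110 (exact sign-flip permutation p = 0.00391), a p-value that cannot arise with both muscle and spleen below 0. The reversal of both arrays thus did not hold by rank. For levels, which need no comparator, C1:A correlated with C1:C2 at 0.56 to 0.67 and A:C2 with C1:C2 at 0.25 to 0.46. C1:A was then higher in 10 of 10 arrays, by a mean of 0.257 (exact sign-flip permutation p = 0.00195, the smallest possible, adjusted 0.00391). Levels hold the constant differences between probes, which all arrays share, so the arrays largely repeat each other in this test.

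Array pairs could be compared directly on the asymmetry, with no comparator. By r across exons, muscle and spleen were the most alike of the 45 pairs, at 0.92. Lung and salivary followed at 0.91, intestine and lung at 0.89 and intestine and salivary at 0.87. The median over pairs was 0.72, and muscle and testis were the least alike at 0.64. All arrays share the constant differences between probes, which raise every one of these values. By the robust SD of the difference in asymmetry between arrays, lung and salivary were closest, at 0.310, and muscle and spleen were next, at 0.330. The labels name no batch.

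The event with the highest asymmetry deviation was Ben50, in spleen. Its C1:A probe read 5.11 in spleen and 5.06 in muscle, then 2.33 in intestine and 1.25 or less in the other tissues. Its A:C2 probe read 0 in spleen, 0.257 in muscle and at most 1.16 elsewhere. The junctions parted most in these 2 arrays, and by less in intestine. The body probe A read 0.421 in spleen and 0.795 in muscle, below its values in heart (1.81) and kidney (1.69), and C1:C2 stayed between 1.80 and 2.43. The asymmetry deviation was 4.81 in spleen. Several of these values lie below the INT median, so the size is not exact.

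In testis the asymmetry was highest for Ben3123. C1:A read 6.89 in testis and 1.66 to 2.50 in the other 9 tissues. A:C2 read 2.48 in testis, inside its range of 2.10 to 2.84 elsewhere. A read 2.37 in testis, above its range of 0.917 to 1.90 elsewhere, while C1, C2 and C1:C2 stayed inside theirs. The asymmetry deviation was 4.75, of which the C1:A probe gave 4.59.

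The lowest asymmetry deviations belonged to exons in which A:C2 and A were high and C1:A was not. For Ben2090, A:C2 read 6.94 in kidney, 5.12 in intestine and 4.16 in liver, and 0.803 or less in the other tissues. A followed, at 5.09, 3.98 and 3.08 in kidney, intestine and liver and at most 1.44 elsewhere, and over tissues it correlated with A:C2 at 0.97. C2 read 7.01, 5.001 and 4.04 in these tissues, but also 4.34 in testis, where A:C2 read 0.803. C1:A read 1.61 in kidney, its lowest value, and at most 2.89 anywhere, and C1 and C1:C2 stayed at or below 2.57. The asymmetry deviation in kidney was -6.83. The probes on the C1 side of Ben2090 were highest in intestine, at 2.57 for C1, 2.89 for C1:A and 2.46 for C1:C2, and none passed 95% of the INT probes in any tissue.

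For Ben3225, A:C2 read 7.36 in brain and 0.320 to 2.43 in the other tissues. A read 4.90 in brain and 0.465 to 1.93 elsewhere. C1:A read 3.13 in brain, within 2.94 to 4.003 elsewhere, and C2 read 1.81, within 1.35 to 3.10. The asymmetry deviation in brain was -6.70. Unlike in Ben2090, the C2 body did not rise with A:C2.

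The third question was how the junctions relate to the body of the exon they enclose. The deviations of A correlated with those of A:C2 at 0.62 in heart to 0.82 in testis, and with those of C1:A at 0.56 in spleen to 0.79 in liver. A:C2 was the closer junction in 10 of 10 arrays, and C1:A minus A:C2 had a mean of -0.0495 ± 0.0206 in r (SD, exact sign-flip permutation p = 0.00195, the smallest possible, adjusted 0.00391). The mean of both junctions followed A more closely than either alone, at 0.68 in salivary to 0.85 in liver. A:C2 also correlated more with its own flank, C2, than with C1, by 0.0437 ± 0.0137 and in 10 of 10 arrays (exact sign-flip permutation p = 0.00195, adjusted 0.00391). For C1:A the gain from its own flank, C1, over C2 was smaller, 0.0127 ± 0.0101, and present in 8 of 10 arrays (exact sign-flip permutation p = 0.00781, adjusted 0.0112).

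Over the tissues of each exon, A followed both junctions with r above 0.8 in 1035 exons (33.1%), A:C2 alone in 498 (15.9%), C1:A alone in 351 (11.2%) and neither in 1242 (39.7%). Among the 1037 exons whose mean junction value spanned at least 2.11 units, A followed both in 668 (64.4%), A:C2 alone in 134 (12.9%), C1:A alone in 82 (7.91%) and neither in 153 (14.8%). Pairs that move apart have a small span of their mean, so this set favours exons whose junctions agree.

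High calls gave the same order. Where both junctions were high, A was high in 355 of 447 combinations, 79.4%, against 2.28% of all A probes, and above its other tissues in 444. Where A:C2 alone was high, A was high in 130 of 377, 34.5%. Where C1:A alone was high, A was high in 77 of 353, 21.8%. Muscle and spleen weigh more on the lone C1:A calls. They had 84 and 81 high C1:A calls against 56 and 54 of A:C2, with 18 and 16 shared. In their asymmetric calls towards C1:A, A was high in 3 of 86 and 1 of 78. The shares of high A were not computed without these arrays. Of the 714 high calls of A, 152 had no high junction.

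The joint calls with the lowest A were Ben471 and Ben3148. In Ben471 both junctions rose in muscle and spleen: C1:A read 3.39 and 3.47 there and A:C2 3.44 and 3.49, against at most 2.62 and 2.58, in heart, elsewhere. The junctions of Ben471 correlated at 0.998 over its tissues. A read 1.89 in muscle and 1.53 in spleen, inside its range of 0.789 to 2.16. In Ben3148 the junctions read 2.71 (C1:A) and 2.87 (A:C2) in brain and at most 1.52 and 0.690 elsewhere, while A was listed at 0 in brain and stayed at or below 0.305 in all tissues. The junctions of Ben3148 in no tissue passed 95% of the INT probes of the array.

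The reverse case was Ben4235 in testis. A read 7.15 in testis and 3.44 to 4.46 elsewhere, a deviation of 3.30. C1:A read 2.34 in testis, below its range of 2.91 to 4.56 elsewhere, and A:C2 read 1.93, below its range of 2.86 to 4.04. C1 and C2 were also lowest in testis, at 2.54 and 2.26. Every exon and junction probe of Ben4235 except A was thus lowest in testis, and over the 10 tissues A correlated with C1:A at -0.48 and with A:C2 at -0.65. In Ben1614 the A probe read 4.04 in brain, where C1:A read 1.13 and A:C2 was listed at 0. In intestine A read 3.79 with junctions at 3.49 and 4.06, so the junctions followed A in intestine and not in brain.

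The last question was which exons show 1 junction and not the other. The reference was the INT probes, the dimmest kind. A junction counted as present when brighter than 95% of the INT probes on its array (a limit from 2.80 in liver to 3.40 in salivary) and as low at or below their median (1.07 in lung to 1.41 in kidney). Of the 31260 exon and tissue combinations, 4121 had both junctions present and 3743 had both low. C1:A alone was present with A:C2 low in 558 combinations, 1.79%, and A:C2 alone in 409, 1.31%. By the same rule, the flank C1 stood alone in 0.688% and C2 in 1.24%. A probe that hybridises poorly also reads low, so a low junction is not shown to be unused. Nor is a bright junction shown to be used, since its probe also holds sequence that another junction shares.

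C1:A stood alone more often than A:C2 in every tissue. Heart had 72 exons with C1:A alone and 62 with A:C2 alone, spleen 67 and 51, muscle 65 and 44, liver 55 and 31, and lung 55 and 33. Salivary had 54 and 38, brain 53 and 32, intestine 51 and 39, kidney 44 and 38, and testis 42 and 41. The mean difference was 14.9 ± 7.56 exons (10 of 10 arrays, exact sign-flip permutation p = 0.00195, the smallest possible, adjusted 0.00391). Of the exons with C1:A alone, 212 in all, 95 showed it in 1 tissue, 73 in 2 to 4, 40 in 5 to 9 and 4 in all 10. Of the 169 with A:C2 alone, 93 showed it in 1 tissue, 49 in 2 to 4, 23 in 5 to 9 and 4 in all 10. Muscle and spleen shared 46 of the exons with C1:A alone, 70.8% of the list in muscle and 68.7% of that in spleen. Lung and salivary shared 35, 63.6% and 64.8% of their lists, and muscle and testis shared 15, 23.1% and 35.7%.

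The body of the exon was bright less often with a lone junction than with both junctions present, at a share nearer to that of all combinations. A exceeded the 95th percentile of INT in 24.0% of all combinations, in 88.0% of those with both junctions present, in 18.6% of those with C1:A alone (104 of 558) and in 18.6% of those with A:C2 alone (76 of 409). With both junctions low it did so in 3.69%. Per array, the shares with C1:A alone and with A:C2 alone differed by a mean of 0.184 ± 6.50 percentage points (exact sign-flip permutation p = 0.926). With the 90th percentile of INT as the limit, A was present less often with C1:A alone, with a difference of -7.08 points (exact permutation p = 0.00391). A was low in 33.9% of combinations with C1:A alone and in 22.2% of those with A:C2 alone, which was not tested. The flanks, too, were present less often with a lone junction than with both. C1 was present in 24.7% and C2 in 22.8% of combinations with C1:A alone, and in 20.3% and 29.8% of those with A:C2 alone. With both junctions present the shares were 85.2% and 90.1%. Over all combinations the shares were 31.0% for C1 and 33.8% for C2.

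Among A, C1, C2 and C1:C2, the skipping junction differed most between the kinds. C1:C2 was present in 54.3% of combinations with C1:A alone (303 of 558) but in 13.2% of those with A:C2 alone (54 of 409). With both inclusion junctions present it was present in 58.2%, with both low in 6.71%, and over all combinations in 19.7%. Per array the shares ran from 41.8% in spleen to 63.6% in lung with C1:A alone, and from 0% in salivary to 23.7% in kidney with A:C2 alone. The difference was 41.6 ± 14.4 points and positive in 10 of 10 arrays (exact sign-flip permutation p = 0.00195, the smallest possible, adjusted 0.00391). The groups are cut on the levels of C1:A and A:C2. Across all exons the level of C1:C2 correlated more with C1:A than with A:C2, at a mean r of 0.613 against 0.356. The difference in shares is therefore not a result separate from that correlation. With C1:A alone, C1:C2 read within 0.5 units of C1:A in 247 of 558 combinations (44.3%). With A:C2 alone, it read within 0.5 units of A:C2 in 44 of 409 (10.8%). With both junctions present it lay that near to C1:A in 37.7%. These shares were not tested.

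Ben3133 was the plainest case of C1:A alone in all 10 tissues. C1:A read 6.70 in brain, 6.50 in heart, 6.70 in intestine, 6.30 in kidney, 5.71 in liver, 6.33 in lung, 6.26 in muscle, 6.04 in salivary, 5.94 in spleen and 5.95 in testis. C1:C2 read 6.69, 6.29, 6.78, 6.37, 5.78, 6.41, 6.27, 6.13, 6.03 and 5.92 in the same order. The junctions that share the C1 side thus ran together in every tissue. A:C2 read at most 0.558, A at most 1.07 and C1 at most 3.03. In Ben310 C1:A read 3.35 to 4.91 and C1:C2 3.40 to 5.35, both highest in brain and lowest in liver, with A:C2 at or below 1.28 and A at or below 1.43. C2 of Ben310 read 4.75 in brain and 1.998 in spleen.

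The exons named for A:C2 alone in all 10 tissues, out of 4 such exons, were of unlike kinds. In Ben2939, A:C2 read 4.43 in brain, 4.50 in heart, 4.77 in intestine, 5.53 in kidney, 4.37 in liver, 4.32 in lung, 3.55 in muscle, 4.95 in salivary, 4.26 in spleen and 3.34 in testis. The A, C1 and C2 probes were bright as well, with A from 2.63 in testis to 5.20 in kidney, and A correlated with A:C2 at 0.99. Both junctions with a C1 side stayed dim, C1:A at 0.642 or less and C1:C2 at 0.646 or less, although the C1 body read 2.37 to 4.95. In Ben3846 A:C2 read 4.25 in liver to 5.76 in heart, while A stayed between 2.04 and 2.83, C2 at or below 1.49 and C1:A at or below 1.10. There A:C2 was bright with none of its exon bodies present.

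In 1 exon, Ben2253, the lone junction changed between tissues. C1:A read 3.63 in muscle and 3.73 in spleen and at most 0.642 elsewhere. A:C2 read 3.68 in brain and at most 1.13 elsewhere. The brain value of A:C2 came with the highest body values of the event, 3.67 for C1, 3.57 for A and 4.01 for C2. In muscle and spleen C1:A was bright with A at 3.22 and 3.18, between its values in lung (3.04) and salivary (3.34), where both junctions were dim, and with C2 at 0.695 and 0.929. The asymmetry spanned 6.58 units over tissues.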

How the data were processed

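Arrays of 10 tissues, 1 pooled sample each, were used. The values are a score deposited by the authors, and neither the labels nor the table header states its scale, normalization or background correction. Values were centred per array on the median over all 21882 probes. Deviations were taken from the median of the other 9 tissues. Robust SDs were the median absolute deviation times 1.4826, and calls needed 4 of them. Asymmetry was C1:A minus A:C2. Presence was read within each array from INT percentiles (95 and 50), so centring and quantile normalization do not affect it.

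Of the 10 exact sign-flip permutation tests (two-sided, over 10 arrays), 4 were planned and 6 were chosen after seeing the data. The members, lists and tests were chosen with earlier results of these data known. Named events were at most 2 per direction: the most extreme in asymmetry (brighter junction present), in the joint deviation of both junctions, in lone junctions (by number of tissues, then median asymmetry) and in junctions against A, plus any event whose lone junction changed. Scripts were run first on simulated tables with known answers. Alternatives were quantile normalization, no centring, each tissue left out, rank correlation, the mean as comparator, filters on dim exons and other thresholds. Probe sequences and gene names were not used here. Python 3.11.15, numpy 2.4.6, pandas 2.3.3 and scipy 1.17.1 were used.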

Additional observations from a re-analysis of the deposited data

Results flagged for a closer look

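The agreement of C1:A with C1:C2 minus that of A:C2 with C1:C2 was negative in muscle, at -0.151, and in spleen, at -0.174, and positive in each of the other 8 tissues. By rank, muscle and spleen were not both negative. The difference between tissues was not tested. Of the exons, 49 were called asymmetric towards C1:A in one tissue and towards A:C2 in another. In 1 exon, Ben2253, C1:A stood alone in muscle and spleen and A:C2 in brain. With 1 array per tissue, neither difference was tested.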

How the results depend on the processing

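No paired analysis was possible because no tissue was measured more than once. Without replicates, the spread between animals is unknown, and values below the INT median give no exact size. Counts moved with their thresholds. At 3 robust SDs, 905 combinations were asymmetric towards C1:A and 905 towards A:C2, and 837 had both junctions high; at 6 the numbers were 168, 123 and 156. Leaving out muscle and spleen, with comparators and threshold recomputed, gave 277 and 239 asymmetric combinations, against 278 and 299 in the same 8 tissues with all arrays in the comparator. C1:A alone and A:C2 alone numbered 999 and 784 with the 90th INT percentile as present, 189 and 121 with the 99th, 228 and 169 with the 25th as low, and 917 and 684 with the 70th and 25th percentiles of all probes. The median correlation within exons was 0.624 by rank and 0.771 without the lowest 25% of exons, a filter that also turned the level difference to -0.00382 (exact permutation p = 0.771).

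The difference in how often A was present was 0.184 points at the main limits and below 0 at every other limit tried. It was -7.08 points (exact permutation p = 0.00391) with the 90th percentile and -0.479 with the 99th. With the 25th as low it was -0.106, and with all probes -3.72 (exact permutation p = 0.0859). At the main limits it was -0.548 without muscle and spleen, and -0.806 to 1.16 when each tissue was left out. The difference between C1:A and A:C2 in their correlation with C1:C2 passed the threshold by rank (0.110, exact permutation p = 0.00391) and without the lowest 25% of exons (0.0903, exact permutation p = 0.0215). It also did so for levels (0.257, exact permutation p = 0.00195), which hold the constant differences between probes that all arrays share. Without muscle and spleen the difference was 0.132. Those were the only arrays below 0, so every array left is positive by that choice and no test is drawn from it. The difference ran from 0.0539 to 0.0995 when each tissue was left out. Beyond the constructions named, the cause was not tested. For the main counts and tests, 263 recomputed values kept their direction and their side of the threshold or stayed within 1.5 times the count, 18 moved further, 10 reversed and 6 newly passed the threshold. Among those 6 were the settings that left out muscle, spleen or both. Of the values per tissue and per event, 927 stayed and 146 moved. The counts of lone junctions per tissue could not change when another tissue was left out. Nor could any lone-junction count change with quantile normalization or without centring. These recomputed values are among those that stayed, so the tallies overstate how much was put to the test.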
